A study of Mus musculus with 6 samples.

Results

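The BCL2 family genes described here are 10 genes whose products decide whether a cell keeps or opens its mitochondrial outer membrane: 5 pro-survival genes (Mcl1, Bcl2, Bcl2l1, Bcl2a1b and Bcl2a1d), 3 BH3-only death genes (Bcl2l11, Pmaip1 and Bbc3) and 2 effectors (Bax and Bak1). They were taken as the rows whose feature name equals the gene symbol, and all 10 were found among the 36930 features of the expression tables. RNA was measured in regulatory T cells (Tregs) that had been FACS purified from the bone marrow (BM) of 3 mice with chronic myeloid leukemia (CML) and 3 naive mice, with 1 library per mouse. All mice were of the strain and genotype Foxp3-DTR-GFP and 8 weeks old, so that the diphtheria toxin receptor and GFP stood under the Foxp3 locus in both groups. In the CML group, LSKs (lineage-negative Sca-1+ c-Kit+ stem and progenitor cells) carrying a BCR-ABL1-GFP retrovirus had been given intravenously to syngeneic recipients without irradiation, and Tregs were taken at day 15. Because the recipients were not irradiated, the CML mice still had their own marrow cells, and leukemic cells carried GFP as well as Tregs. The naive mice had no leukemia. The comparison asks how BM Tregs of leukemic mice differ in gene expression from those of healthy mice.

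Proteins of the BCL2 family meet at the mitochondrial outer membrane. BAX and BAK1 form the pores through which cytochrome c leaves, pro-survival proteins such as BCL2 and MCL1 hold them and the BH3-only proteins in check, and BH3-only proteins such as BIM (Bcl2l11) act as sensors of growth factor loss and damage that release this block. Tregs are known to depend on MCL1, and the balance of MCL1 and BIM sets how long they live in tissue.

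Values were taken as RPKM, reads scaled by gene length and by the reads of the library, so levels of different genes can be set side by side. Depth, as estimated from the smallest steps in the values, was 829181 to 7613827 reads in the CML libraries and 5187987 to 9751911 in the naive libraries, and CML replicate 2 was the shallowest. The 10 genes rested on an estimated 19.95 to 495 reads each in CML replicate 2, and on at least 55.3 reads in every other library. Summed RPKM of 12 Treg and T cell markers, Foxp3, Il2ra and Ctla4 among them, was 3131 to 4327 in CML and 3221 to 3640 in naive libraries, with no marker at 0 throughout. Of 16 neutrophil markers, Mmp8, Retnlg, Ly6g and Cxcr2 were listed at 0 in all 6 libraries, and so were the B cell markers Ebf1 and Pax5. The other neutrophil markers were detected, and all 10 that were high enough to be tested had a positive difference of CML against naive Tregs. Of the B cell and plasma cell markers, Cd79b, Jchain and Mzb1 were detected at up to 8.80, 20.1 and 12.7 RPKM. As these are bulk samples, fewer cells of a type and less RNA per cell cannot be told apart.

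Bcl2a1b and Bcl2a1d encode copies of A1, a pro-survival protein known as an activation-induced gene of lymphoid and myeloid cells. The mouse has several near-identical copies on chromosome 9. In GENCODE M21 on GRCm38, the protein-coding gene Bcl2a1b lies at chr9:89199209-89207827 on the plus strand and Bcl2a1d at chr9:88723285-88731914 on the minus strand. Their annotated transcripts, of 817 and 863 bases, were 99.1% identical over 817 aligned bases, and Bcl2a1a, another copy, was 98.2% identical to Bcl2a1b. The sequences below show where a single-end read of 76 bases can tell the copies apart. They are the first 76 coding bases of each copy in GENCODE M21, with capitals at the 6 positions where the copies differ.

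Bcl2a1a: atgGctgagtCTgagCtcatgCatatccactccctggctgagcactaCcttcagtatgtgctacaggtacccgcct

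Bcl2a1b: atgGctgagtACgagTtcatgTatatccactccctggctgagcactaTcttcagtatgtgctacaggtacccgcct

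Bcl2a1d: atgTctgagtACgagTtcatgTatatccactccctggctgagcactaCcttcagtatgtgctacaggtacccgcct

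A read from coding bases 95 to 170 has the same letters in all of the 3 copies, here without capitals since no position differs.

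Bcl2a1a, Bcl2a1b and Bcl2a1d: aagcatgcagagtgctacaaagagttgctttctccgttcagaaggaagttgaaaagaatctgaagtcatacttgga

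Of the 516 coding bases, 12 positions differed among the 3 copies, and 149 of the 441 possible reads of 76 bases were identical in all of them. Over the whole transcripts, 43.0% of possible Bcl2a1b reads and 67.3% of possible Bcl2a1d reads also occurred in another copy. How such reads were shared out is not given in the sources used here, so the split between the copies is uncertain. The exons of Bcl2a1b also overlap Gm29094 on the same strand.

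Bcl2a1b stood at 86.6, 53.4 and 126 RPKM in CML replicates 1, 2 and 3 and at 44.6, 43.5 and 45.4 RPKM in the naive replicates. Every CML library was above every naive library, and the naive libraries were nearly level. The mean was 88.5 ± 36.1 RPKM in CML and 44.5 ± 0.979 in naive Tregs (SD, n = 3 each), a 1.99-fold difference of means. On the log2(RPKM + 1) scale, which understates the change of low genes, the difference was 0.89 (SE 0.30, 95% interval 0.21 to 1.58). It did not pass the adjusted threshold in limma (unadjusted p = 0.0169, Benjamini-Hochberg adjusted p = 0.392).

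For Bcl2a1d the values were 39.2, 27.9 and 73.3 RPKM in CML and 18.9, 14.9 and 15.2 RPKM in naive libraries. Again the groups did not overlap, and CML replicate 3 was the highest of all. The mean was 46.8 ± 23.7 RPKM against 16.4 ± 2.24, a 2.86-fold difference of means and the largest fold of the 10 genes. The log2 difference was 1.36 (SE 0.36, 95% interval 0.53 to 2.18, limma unadjusted p = 0.00534, adjusted p = 0.281). Without CML replicate 3 it was 0.98, and that of Bcl2a1b was 0.60, so this library carried part of the size of both. In CML replicate 2 the value of Bcl2a1d rested on an estimated 19.95 reads, the fewest of any of the 10 genes.

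Because the copies share reads, their sum depends less on how reads were split. Bcl2a1b and Bcl2a1d together came to 126, 81.3 and 199 RPKM in CML and 63.5, 58.4 and 60.7 RPKM in naive libraries, with means of 135 ± 59.4 and 60.9 ± 2.54 and a ratio of 2.22. With Bcl2a1a and Bcl2a1c added, the sum was 154, 90.6 and 237 RPKM in CML and 73.9, 66.4 and 74.0 RPKM in naive libraries, a ratio of 2.25. The groups stayed apart in both sums, and the 2 ratios were close to each other. The ratio of Bcl2a1d to Bcl2a1b was also higher in each CML library (0.453, 0.522 and 0.584) than in each naive library (0.425, 0.343 and 0.335), a ratio that the unknown sharing of reads touches directly. Bcl2a1a itself was at 26.1, 9.30 and 37.9 RPKM in CML and 10.4, 7.69 and 12.8 RPKM in naive libraries, which overlap (log2 difference 0.99, limma adjusted p = 0.569). Bcl2a1c had at most 2.38 RPKM in any library and was not tested.

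The A1 copies also have near-identical start regions. RefSeq promoter windows, from 250 bases before to 50 bases after the gene start on GRCm38.p6, were 98.8% identical between Bcl2a1b and Bcl2a1d and 99.2% between Bcl2a1a and Bcl2a1b where they aligned. The stretch shown next lies in these windows and outside annotated exons. It is shown because these genes stood higher together and because it matches TGANTCA and the PU.1 core GAGGAAGT, both in capitals. TGANTCA is the AP-1 motif with any letter allowed at its center, here A, and so is looser than the AP-1 consensus.

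Bcl2a1b, chr9:89199079-89199162, plus strand: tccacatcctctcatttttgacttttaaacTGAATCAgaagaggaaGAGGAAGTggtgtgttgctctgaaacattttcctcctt

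Bcl2a1d, chr9:88731917-88731994, minus strand: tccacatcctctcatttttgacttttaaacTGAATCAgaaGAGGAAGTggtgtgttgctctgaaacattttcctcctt

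Bcl2a1a had the same letters as Bcl2a1b over this stretch, at chr9:88956770-88956853 on the plus strand. The stretch of Bcl2a1b has 84 bases and that of Bcl2a1d 78. Letters were searched on both strands in 32851 RefSeq promoters. TGANTCA was found in 7.81% of them and, among the genes described here, only in the A1 copies; Pmaip1 was not searched. GAGGAAGT was found in 3.20% of promoters, and the promoter of Bak1 held it beside those of the A1 copies. The STAT motif TTCNNNGAA, present in 8.30% of promoters, was found in none of these genes, and the NF-kB consensus, present in 8.46%, was found in 1 of 3 promoters of Bcl2l1 and 1 of 3 of Bbc3. The motifs were chosen after the sequences had been seen, and a match of letters is a description and not a bound site.

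Mcl1, which encodes the short-lived pro-survival protein on which Tregs depend, was by far the most abundant of the 10 transcripts. It lies on chromosome 3, at chr3:95658788-95663176. Its level was 180.0, 174 and 265 RPKM in CML and 203, 225 and 193 RPKM in naive libraries, and the groups overlapped. Means were 206 ± 50.7 and 207 ± 16.6 RPKM. The log2 difference was −0.03 (SE 0.19, 95% interval −0.47 to 0.42, limma adjusted p = 0.973), and it turned to small positive values under other scalings of the libraries and without CML replicate 1, CML replicate 2 or naive replicate 2, so no direction can be given.

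Bcl2, the founding pro-survival gene, was the lowest of the 10 in both groups. It lies at chr1:106538178-106714274, and its exons overlap D630008O14Rik on the opposite strand. The values of Bcl2 were 12.5, 9.28 and 3.36 RPKM in CML and 3.52, 8.498 and 7.69 RPKM in naive libraries. They overlapped from end to end, and CML replicate 1 held the highest and CML replicate 3 the lowest value of all. Its log2 difference was 0.23 with a wide interval (SE 0.54, 95% interval −1.03 to 1.49, limma adjusted p = 0.902), and it turned to −0.11 without CML replicate 1 and to −0.10 without naive replicate 1.

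Bcl2l1, which encodes BCL-XL and lies at chr2:152780668-152831728, was at 15.7, 14.6 and 25.4 RPKM in CML and 17.995, 14.7 and 15.2 RPKM in naive libraries. CML replicate 3 was high and the other CML libraries lay within or just below the naive range. For this gene the log2 difference was 0.17 (SE 0.30, 95% interval −0.52 to 0.86, limma adjusted p = 0.868) and turned to −0.07 without CML replicate 3.

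The shares of the pro-survival transcripts are given next as a description, without a test. Summed RPKM of the 5 pro-survival genes was 334, 280 and 493 in CML and 288, 307 and 276 in naive libraries, with overlap and means of 369 ± 111 and 290.3 ± 15.4 (SD, n = 3 each). Mcl1 made up 53.9%, 62.4% and 53.8% of that sum in CML and 70.5%, 73.4% and 69.8% in naive libraries, lower in each CML library. Bcl2a1b and Bcl2a1d together made up 37.7%, 29.1% and 40.4% in CML and 22.1%, 19.0% and 22.0% in naive libraries. Mean shares of the A1 copies were 35.7% ± 5.90 and 21.0% ± 1.71 (SD, n = 3 each), against 56.7% ± 4.93 and 71.2% ± 1.93 for Mcl1. Shares within a library do not depend on scaling between libraries, and since they add up to a whole, the share of Mcl1 must drop as that of the A1 copies grows. They restate the values of Bcl2a1b and Bcl2a1d, which did not pass the adjusted threshold.

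**Figure D1:**
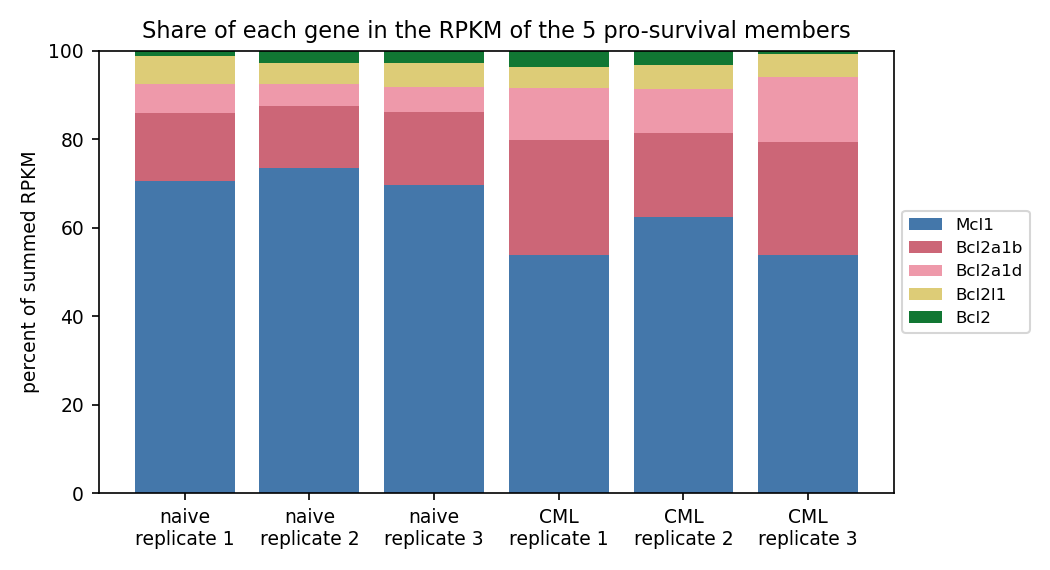
Stacked bars give, for each of the 6 libraries, the percent of the summed RPKM of the 5 pro-survival genes that each gene made up, on an axis from 0 to 100. Mcl1 made up 53.8% to 62.4% in CML and 69.8% to 73.4% in naive libraries, and the A1 copies took up most of the rest.

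Among the BH3-only genes, none had groups that were apart. Pmaip1 encodes NOXA, a damage sensor that binds MCL1 and A1. Its values were 36.2, 27.1 and 112 RPKM in CML and 75.98, 82.9 and 67.4 RPKM in naive libraries. CML replicates 1 and 2 were below all naive libraries and CML replicate 3 was above all of them. Over all 6 libraries the log2 difference was −0.63 (SE 0.47, 95% interval −1.72 to 0.45, limma unadjusted p = 0.214, adjusted p = 0.688). Without CML replicate 3 it was −1.24 (limma unadjusted p = 0.00080, adjusted p = 0.176, with adjusted p from 0.176 to 0.905 over all settings tried). Without CML replicate 2 it was −0.23 (limma unadjusted p = 0.614), so the value depends on either library.

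Bcl2l11 encodes BIM, the sensor of cytokine withdrawal that can bind every pro-survival member, and lies at chr2:128126038-128162547. It stood at 16.2, 12.1 and 33.3 RPKM in CML and 20.8, 15.6 and 16.9 RPKM in naive libraries, with CML replicate 3 the highest and CML replicate 2 the lowest. Its log2 difference was 0.09 (SE 0.38, 95% interval −0.80 to 0.97, limma adjusted p = 0.9504), and −0.31 without CML replicate 3.

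Bbc3 encodes PUMA, a p53 target, at chr7:16308393-16318205. Its values were 7.30, 27.1 and 21.8 RPKM in CML and 18.7, 15.03 and 12.4 RPKM in naive libraries. CML replicate 1 lay below and CML replicates 2 and 3 above the naive range. Its log2 difference was 0.11 (SE 0.47, 95% interval −0.98 to 1.20, limma adjusted p = 0.949), and it turned to −0.23 without CML replicate 2, −0.08 without CML replicate 3 and −0.02 without naive replicate 3.

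Ratios within a library set killers beside their binding partners. Bcl2a1b to Pmaip1 was 2.39, 1.98 and 1.12 in CML and 0.586, 0.524 and 0.674 in naive libraries. Bcl2a1b thus exceeded Pmaip1 in each CML library and in no naive library, but the split between the A1 copies is uncertain. All Bcl2a1 copies summed to 154, 90.6 and 237 RPKM in CML libraries, above Pmaip1 in each. In naive libraries they summed to 73.9, 66.4 and 74.0 RPKM against 75.98, 82.9 and 67.4 RPKM for Pmaip1. That sum exceeded Pmaip1 in naive replicate 3. Mcl1 to Pmaip1 was 4.97, 6.45 and 2.36 in CML and 2.67, 2.71 and 2.86 in naive libraries, with CML replicate 3 below the naive range and the others above it. Bcl2l11 to Bcl2 was 1.298, 1.31 and 9.90 in CML and 5.91, 1.83 and 2.20 in naive libraries, with overlap. These ratios are descriptions of RNA and were not tested.

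Bak1, one of the pore-forming effectors, was at 26.1, 31.6 and 42.1 RPKM in CML and 20.9, 19.7 and 19.6 RPKM in naive libraries. Every CML library was above every naive library. Means were 33.2 ± 8.12 and 20.1 ± 0.737 RPKM, a 1.65-fold difference. The log2 difference was 0.67 (SE 0.25, 95% interval 0.10 to 1.24) and did not pass the adjusted threshold in limma (unadjusted p = 0.0261, adjusted p = 0.445). The unadjusted call was lost in 6 of 16 alternatives: without naive replicate 1, 2 or 3 (limma unadjusted p = 0.0542, 0.0706 and 0.0743), without CML replicate 3 (0.0747), with a replicate block (0.0515), and with library weights, where the log2 difference of 0.58 fell short of the fold. Bak1 lies at chr17:27019810-27029009 on the minus strand, and its exons overlap Ggnbp1 on the opposite strand, which a kit without strand information cannot separate. Ggnbp1 was at 0.142, 9.17 and 3.63 RPKM in CML and 3.29, 3.89 and 1.82 RPKM in naive libraries, lower than Bak1 throughout and not ordered by group.

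Bax, the other effector, was at 54.8, 39.3 and 48.6 RPKM in CML and 37.0, 41.3 and 42.2 RPKM in naive libraries. CML replicates 1 and 3 were above the naive range and CML replicate 2 was within it. Its log2 difference was 0.23 (SE 0.20, 95% interval −0.24 to 0.69, limma adjusted p = 0.717). The 2 effectors summed to 80.9, 71.0 and 90.7 RPKM in CML and 58.0, 61.1 and 61.8 RPKM in naive libraries, without overlap. The exons of Bax, at chr7:45461697-45466898, overlap Gm45808 on the same strand.

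**Figure D2:**
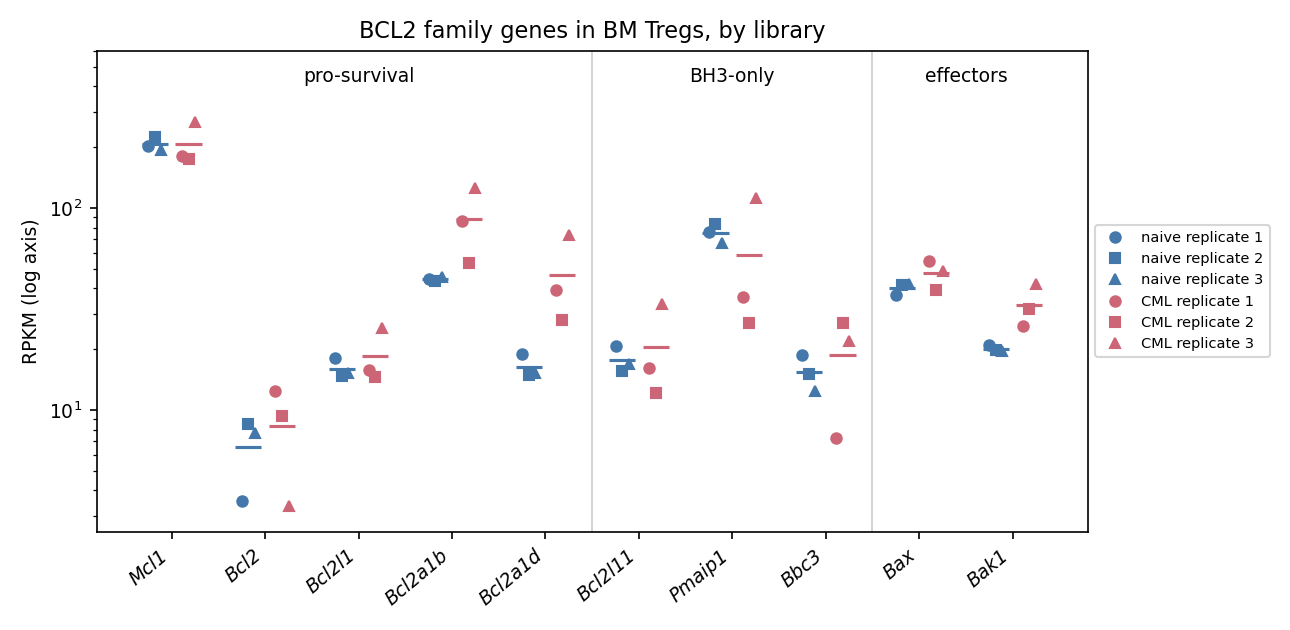
Points give RPKM in each of the 6 libraries for each of the 10 genes, grouped as pro-survival, BH3-only and effector genes, on a log axis, with a bar at the group mean. Bcl2a1b, Bcl2a1d and Bak1 are the genes whose 3 CML libraries lie above all 3 naive libraries.

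Read against all genes, none of the 10 passed an adjusted p of 0.05 with a fold of 1.5 in limma, a threshold passed by 24 of 13923 genes tested (0.172%). At an unadjusted p under 0.05 with the same fold, 3 of the 10 were higher in CML, namely Bcl2a1b, Bcl2a1d and Bak1, and 0 were lower. In 6 of 16 alternatives Bak1 was not among them. Over all genes tested, 2.61% were higher and 5.94% lower by that rule, 8.55% in either direction. The same 3 genes had groups without overlap, each with an exact 2-sided permutation p of 0.1, the smallest that 20 assignments of the 6 libraries can give. Among all genes, 4.84% had no overlap with CML higher and 12.2% with CML lower, 17.1% in all. The log2 difference was positive for 8 and negative for 2 of the 10 genes, and for 4977 and 8946 of all genes tested. The median of the 10 genes was 0.20, where the median of all genes tested was −0.18. That median moved to −0.01 after quantile normalization, so the 10 genes are best read against the gene median of the same scaling. Bcl2a1b and Bcl2a1d share reads and are not independent entries in these counts.

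**Figure D3:**
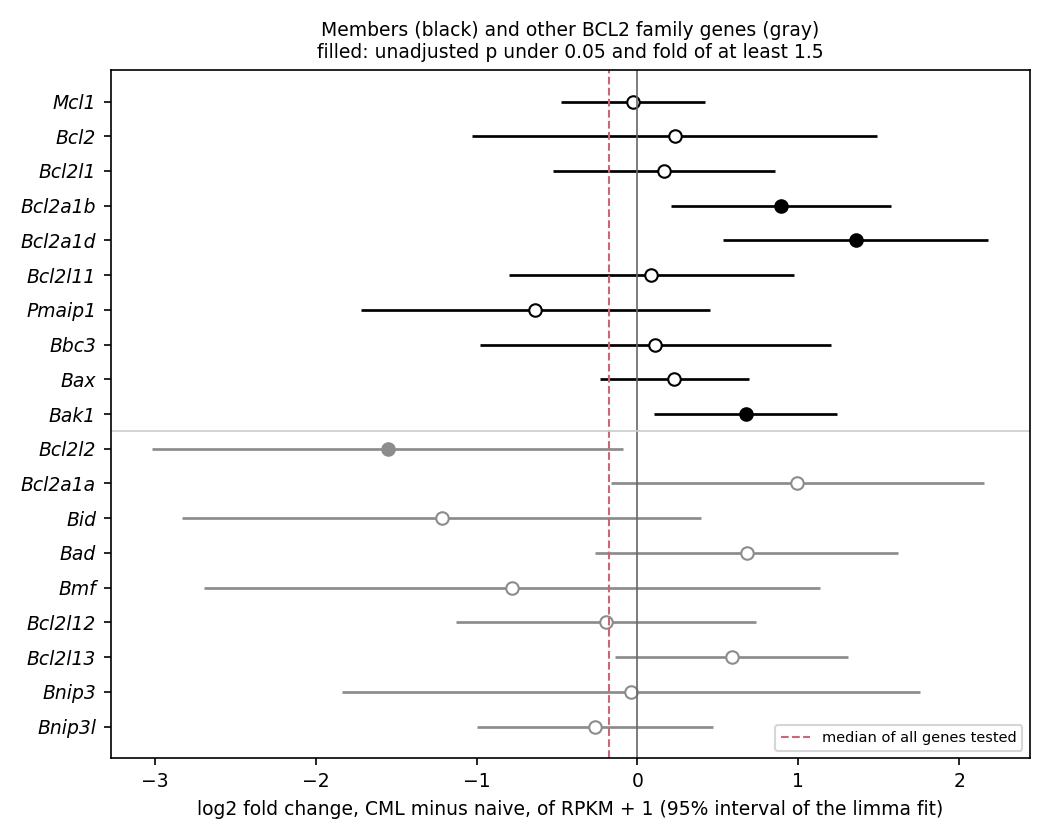
Points give the log2 difference of CML against naive Tregs on log2(RPKM + 1) with its 95% interval from limma for the 10 genes (black) and the other tested genes of the family (gray), filled at an unadjusted p under 0.05 with a fold of at least 1.5, and a dashed line marks the median of all genes tested, −0.18. Of the 10, the intervals of Bcl2a1d (0.53 to 2.18), Bcl2a1b (0.21 to 1.58) and Bak1 (0.10 to 1.24) lie above 0.

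The order of levels differed between the groups in its upper part. In naive Tregs, Mcl1, Pmaip1, Bcl2a1b and Bax followed each other with ranges that did not touch. Bak1, Bcl2l11, Bcl2a1d, Bcl2l1 and Bbc3 came next, each overlapping its neighbour in the order, and Bcl2 was lowest and apart. In CML Tregs only Mcl1 at the top and Bcl2 at the bottom were apart from their neighbours. Between them stood Bcl2a1b, Pmaip1, Bax, Bcl2a1d, Bak1, Bcl2l11, Bbc3 and Bcl2l1, where no neighbours differed beyond their spread.

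The CML libraries were more spread than the naive libraries in each of the 10 genes, by the SD of log2(RPKM + 1), against 76.7% of all genes tested. The median SD of the 10 was 0.65 in CML and 0.15 in naive Tregs, and over all genes 0.53 and 0.29. Pmaip1 ranged 4.15-fold from the lowest to the highest CML library and 1.23-fold among naive libraries. Bcl2a1b ranged 2.35-fold in CML and 1.04-fold in naive libraries, and Mcl1 1.52-fold and 1.17-fold. CML replicate 3 was the highest of the 6 libraries for 7 of the 10 genes, where it was the highest for 26.3% of all genes tested. CML replicate 2 was the lowest for 4 of the 10, Bcl2l1, Mcl1, Bcl2l11 and Pmaip1, and for 47.1% of all genes, beside its low depth. No naive library was the highest for any of the 10.

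Markers of other marrow cells moved with some of these values. Summed RPKM of 9 erythroid markers was 132, 41.8 and 250.0 in CML and 28.6, 30.9 and 5.93 in naive libraries, without overlap and in the same order over the CML libraries as Bcl2a1b, with Epor at 0 in all. The 16 neutrophil markers summed to 24.3, 218 and 255 RPKM in CML and 37.7, 65.3 and 68.5 RPKM in naive libraries. Among them Elane, neutrophil elastase, was at 3.95, 7.56 and 29.1 RPKM in CML and 2.66, 1.43 and 3.34 RPKM in naive libraries, without overlap. Over the CML libraries the neutrophil sum was lowest in replicate 1 and highest in replicate 3, and Bcl2a1b was lowest in replicate 2 and highest in replicate 3. The 9 monocyte and macrophage markers summed to 203 to 242 RPKM in CML and 154 to 244 in naive libraries, and 6 dendritic cell markers to 225 to 238 and 171 to 381. Summed RPKM of 6 stem and progenitor markers was 6.80 to 8.77 in CML and 2.57 to 3.93 in naive libraries, without overlap, with Hoxa9 and Mecom at 0 in all. The 8 B cell and plasma cell markers summed to 4.73 to 33.8 and 20.5 to 29.5 RPKM, and the 2 CD8 T cell markers to 51.1 to 74.2 and 26.2 to 58.7. The part of these cells in the differences of Bcl2a1b, Bcl2a1d and Bak1 was not tested.

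**Figure D4:**
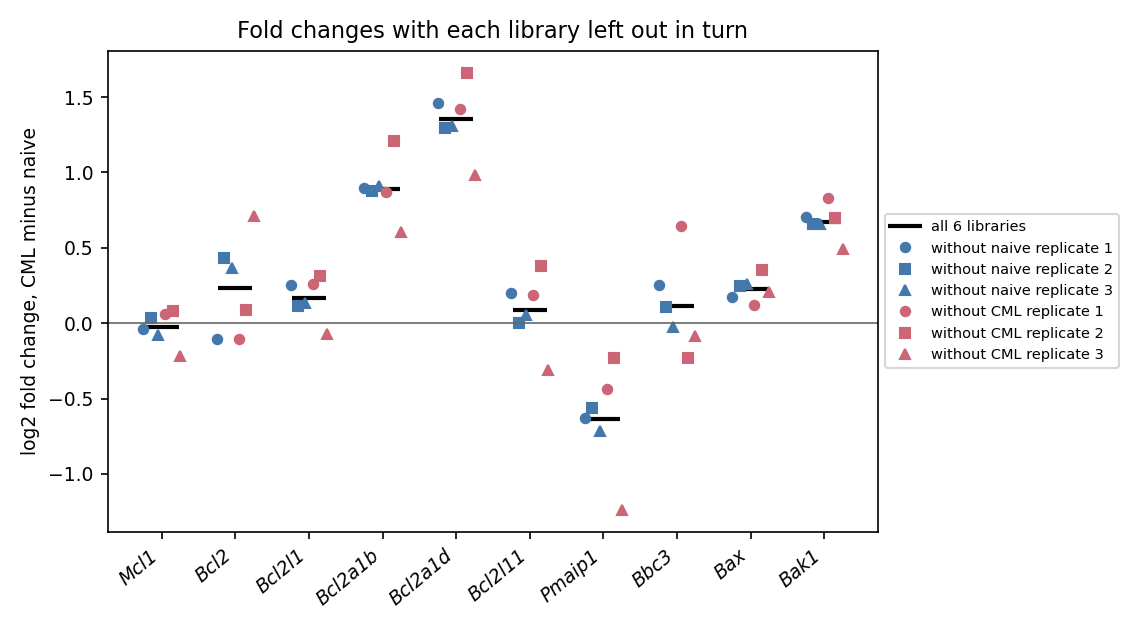
Points give the log2 difference of each of the 10 genes with all 6 libraries and with each library left out in turn. Bcl2a1b stayed between 0.60 and 1.21, Bcl2a1d between 0.98 and 1.66 and Bak1 between 0.49 and 0.83, while Pmaip1 spread from −1.24 to −0.23 and Bcl2, Bcl2l1, Mcl1, Bcl2l11 and Bbc3 crossed 0.

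The genes whose pattern over the 6 libraries was most like that of the 3 higher genes were found by Pearson's r of log2(RPKM + 1) over all genes tested. They are given as a description, since the 6 libraries share the group difference and their depth. For Bcl2a1b these were Atg3 (r = 0.996), an enzyme of autophagy, Rhox8 (0.990) and Chst2 (0.990). For Bcl2a1d they were Hist1h2ap (0.995), a histone H2A gene, Bhlhe40 (0.995), a transcription factor of activated T cells, and Atg3 (0.990). For Bak1 they were Agpat2 (0.991), an enzyme of phospholipid synthesis, Rnase4 (0.986) and Zfp61 (0.984). With r of at least 0.95 there were 81 genes for Bcl2a1b, 57 for Bcl2a1d and 44 for Bak1, and the A1 copies had r = 0.97 with each other.

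The other 16 genes of the family on a fixed list included 9 that were high enough to be tested, and 0 of them passed the threshold in limma. Among pro-survival genes, Bcl2l2 (BCL-W) was at 1.81, 0 and 0 RPKM in CML and 4.64, 1.57 and 3.88 RPKM in naive libraries. It was the only 1 of the 9 at an unadjusted p under 0.05 (log2 difference −1.55, limma unadjusted p = 0.0404, adjusted p = 0.496), although the groups overlap. Bid, the BH3-only protein that caspase 8 cleaves, was at 16.8, 2.05 and 20.8 RPKM in CML and 27.2, 19.2 and 25.1 RPKM in naive libraries (log2 difference −1.22, adjusted p = 0.609). Bad, held inactive by phosphorylation in growing cells, had a log2 difference of 0.68 (limma adjusted p = 0.622), and Bmf of −0.78 (adjusted p = 0.763). Of the divergent members, Bcl2l13, a mitophagy receptor, had 0.59, Bnip3 −0.04, Bcl2l12 −0.20 and Bnip3l, a mitophagy receptor as well, −0.27, all with overlapping groups. Bcl2l10 and Hrk were listed at 0 in every library, and Bik, Bok, Bcl2l14, Bcl2l15 and Bcl2a1c were below the level needed for a test.

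Downstream of the pores lie the apoptosome and the caspases, and 0 of the 15 genes of that list passed the threshold. At an unadjusted p under 0.05 with a fold of 1.5, 1 was lower. It was Dffb, the nuclease that cuts DNA in dying cells, at 9.98, 4.69 and 5.12 RPKM in CML and 21.4, 9.86 and 12.6 RPKM in naive libraries (log2 difference −1.04, limma unadjusted p = 0.0429, adjusted p = 0.503). Casp6, an executioner caspase, had a log2 difference of 0.996 and Casp9, the initiator at the apoptosome, one of −0.62, both with overlapping groups. The median of the list was 0.04.

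Of 11 mitochondrial partners of the family, 1 was higher and 0 were lower by the unadjusted rule, and 0 passed the threshold. Vdac2, the outer membrane channel that binds BAK1, was at 37.1, 36.7 and 46.3 RPKM in CML and 29.5, 23.6 and 21.9 RPKM in naive libraries. The groups did not overlap, as was the case for Bak1, and the log2 difference was 0.66 (SE 0.22, limma unadjusted p = 0.0180, adjusted p = 0.396). Itpr3, a calcium channel of the endoplasmic reticulum, was at 42.7, 29.7 and 50.3 RPKM in CML and 62.6, 59.5 and 58.2 RPKM in naive libraries, lower in every CML library (log2 difference −0.58, limma adjusted p = 0.487). Vdac3 had a log2 difference of −1.29 and Dnm1l, the GTPase of mitochondrial fission, one of 0.49, both with overlap. The median of the list was −0.04.

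Of 15 p53 target genes, 12 were tested, with 0 higher and 1 lower by the unadjusted rule and a median of −0.33. Sesn1, a stress-induced brake on mTORC1, was at 30.0, 32.4 and 34.3 RPKM in CML and 73.1, 79.3 and 68.6 RPKM in naive libraries. Its groups were far apart relative to their spread, yet its adjusted p was just above the threshold (log2 difference −1.17, SE 0.17, limma unadjusted p = 0.000168, adjusted p = 0.0707). Tnfrsf10b, the TRAIL receptor, had −0.94, Sesn2 0.75 and Cdkn1a, the cell cycle inhibitor p21, 0.81 on the same scale, all with overlapping groups. The p53 targets of the BCL2 family itself (Bax, Bbc3 and Pmaip1) had differences of 0.23, 0.11 and −0.63, none of which passed a test.

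For the remaining lists no gene passed even the unadjusted rule. The 7 caspase inhibitors had a median log2 difference of −0.08, from −0.54 for Birc5 (survivin) and −0.28 for Birc6 to 0.07 for Xiap and 0.14 for Birc2. The 10 genes of death receptor signaling had a median of −0.48, with −1.64 for the adaptor Fadd, −1.24 for Fasl, 0.13 for the deubiquitinase Cyld and 0.40 for Tnfsf10 (TRAIL). Birc5, Fadd and Fasl were each listed at 0 in CML replicate 2, the shallowest library. Of 21 regulators of BCL2 family levels, 20 were found in the tables and 18 were tested, with a median of −0.11. They included Fbxw7, the ubiquitin ligase subunit that targets MCL1 (−0.89), the survival kinase Pim2 (−0.87), and Myb (0.56) and Ddit3 (0.35), transcription factors with targets in the family. Fbxw7 was at 18.9, 3.58 and 20.46 RPKM in CML and 20.50, 20.8 and 25.6 RPKM in naive libraries (limma unadjusted p = 0.161). The groups were barely apart, CML replicate 2 was far the lowest, and 12.2% of all genes were lower in CML without overlap. Each of these medians is to be read beside the median of −0.18 over all genes.

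**Figure D5:**
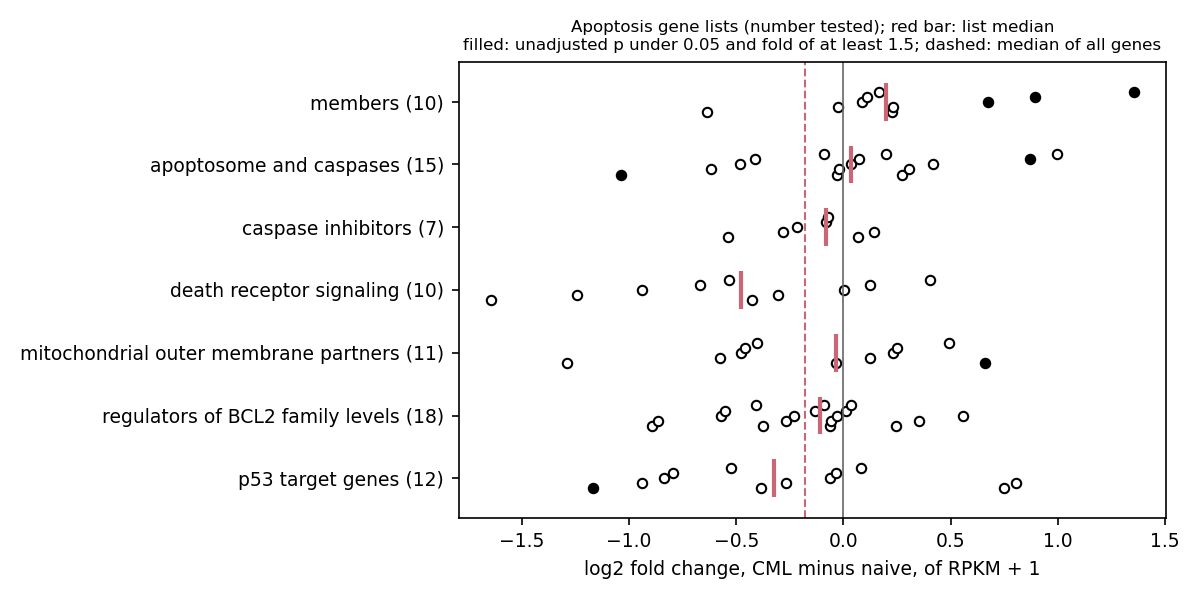
Each point is 1 tested gene of a list (top row, members: the 10 genes), placed by its log2 difference of CML against naive Tregs on log2(RPKM + 1), with a red bar at the list median, a dashed line at the median of all genes tested (−0.18) and filled points for an unadjusted limma p under 0.05 with a fold of at least 1.5. Dffb (−1.04), Vdac2 (0.66), Sesn1 (−1.17) and 3 of the 10 genes are among the filled points.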

How the data were processed

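The authors prepared libraries with SMART-Seq v4, read them as single-end reads of 76 bases and processed these with SeqMan NGen and ArrayStar; the labels name GRCm38 (mm10). RPKM was taken as the unit of the deposited values, which the sources used here do not name, because value times length falls on whole steps; 30.7% to 59.8% of small products did so within 0.05 of a step, against 10% by chance. The steps show scaling by length, while scaling by the reads of the library was assumed. Depth was estimated from these steps under that assumption, and such estimates cover counting error only. The value for features without reads was set to 0. Groups came from the labels, with 3 mice each; nothing beyond 1 library per mouse separates animal from technical spread. limma 3.58.1 in R 4.3.3 was run on log2(RPKM + 1) for 13923 features with a mean of at least 1 RPKM, with a trended prior variance and Benjamini-Hochberg adjustment, with thresholds of 0.05 for adjusted p and 1.5 for the fold. Count models were not used since the values are not counts. On simulated data, 112 of 200 genes changed by 2 on the log2 scale were recovered, with 8 of 13327 unchanged genes called. The simulation gave both groups the same spread and changed only genes of higher level. Its counts therefore do not describe data with a wider spread in CML, as found here. Other genes named are the 2 largest positive and negative differences of each list, genes past the threshold, and the 3 most correlated with each gene at an unadjusted p under 0.05. Genes and lists were chosen with earlier results of these data known. Python 3.11.15 was used for other steps. Alternatives were other pseudocounts, filters and scalings, a replicate block, no trend, library weights, and each library left out. Some results are not reported here.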

Additional observations from a re-analysis of the deposited data

How the results depend on the processing

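Of the 10 BCL2 family genes, 0 passed the adjusted threshold in limma in any of the 16 alternatives, and 2 to 3 did at an unadjusted p under 0.05 with a fold of 1.5. Bcl2a1b (adjusted p 0.106 to 0.891) and Bcl2a1d (0.108 to 0.798) stayed positive and under an unadjusted p of 0.05 in all 16; Bak1 stayed positive but lost the unadjusted call in 6 (each naive replicate or CML replicate 3 left out, replicate block, library weights), with an adjusted p of 0.260 to 0.891. The log2 difference of Mcl1 (−0.03) reversed to 0.057 after quantile normalization, 0.044 at an equal 75th percentile and 0.070 at an equal sum of features under 1000 RPKM, and that of Bbc3 (0.11) to −0.28 with library weights. With 1 library left out, the ranges were −0.11 to 0.71 for Bcl2, −0.068 to 0.31 for Bcl2l1, −0.22 to 0.081 for Mcl1, −0.31 to 0.38 for Bcl2l11 and −0.23 to 0.65 for Bbc3.

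Over all genes, 24 passed the threshold; 0 did with a pseudocount of 0.001 (973 at an unadjusted p under 0.05), 1 without a filter, 53 after quantile normalization and at an equal 75th percentile, 52 at an equal sum, 11 without a trend, 45 with library weights and 0 to 29 with 1 library left out; genes at an unadjusted p under 0.05 (1190) then numbered 731 to 1758. These had 363 higher and 827 lower, and 624 and 590 after quantile normalization. The causes were not tested. Replicate numbers belong to different mice, and their deviations did not go together (r −0.005, −0.002 and −0.02); with a replicate block 1 gene passed, and Bak1 had an unadjusted p of 0.0515. At the depth of CML replicate 2, 3 reads equal 0.503 to 4.43 RPKM for these genes.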
